A study of Mus musculus with 6 samples.

Results

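The genes described here are 10 RNA-binding proteins that control alternative splicing or RNA processing in the brain, taken by symbol from the 32285 genes of the count tables: Rbfox1, Rbfox2, Rbfox3, Celf2, Celf4, Nova1, Nova2, Khdrbs2, Khdrbs3 and Qk. Their UMI counts (each UMI is 1 tagged RNA molecule) were read in single nuclei of the prelimbic (PL) medial prefrontal cortex of adult male C57BL/6 mice. Run mice were raised by mothers that had a running wheel after birth and Sed mice by sedentary mothers in standard cages, and from weaning the males were either group-housed (GH) or kept in social isolation (SI) in single cages. Cohort 1, whose mice had been through behavioral tests, gave 1 Run GH and 1 Sed GH library. Its males were chosen by rank: the paper describes Run and Sed males at the top and bottom of their own group. Cohort 2, of naive mice, gave 4 libraries, 1 for each maternal environment in each housing. Each library pooled nuclei of 3 mice, so animals could not be told apart, every group of 1 cohort was a single library, and SI existed in cohort 2 alone. All groups were of the same strain and sex, and none of the offspring had a wheel. The GEO labels give postnatal day 21 as the stage, while the methods of the study place nuclear isolation in adulthood; the latter is used here.

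Splicing regulators of this kind bind short motifs in a pre-mRNA and favor or block nearby exons. Proteins of 1 family bind like motifs, so the exons a cell includes depend in part on which members it makes and how much of each. In cortex the RBFOX, CELF and NOVA proteins act on transcripts of ion channels, receptors and synaptic scaffolds, the KHDRBS (SLM) proteins are known for the choice of an alternative exon of the neurexins, and Quaking (QKI) is known for myelin gene transcripts in oligodendrocytes. The counts below are levels of nuclear transcripts of these genes, introns included. They do not measure splicing, protein or which isoform was made.

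In the mm10 genome all 10 genes matched the GENCODE M21 annotation by identifier. Rbfox1 spans chr16:5885355-7411526 on the plus strand, 1526 kb. Rbfox2 lies at chr15:77078990-77307004 (minus strand, 228 kb) and Rbfox3 at chr11:118489762-118911597 (minus, 422 kb). The CELF genes are at chr2:6539694-7509563 (Celf2, minus, 970 kb) and chr18:25477632-25754157 (Celf4, minus, 277 kb). The NOVA genes are at chr12:46694517-46818929 (Nova1, minus, 124 kb) and chr7:18925888-18965319 (Nova2, plus, 39.4 kb). Khdrbs2 is at chr1:32172714-32658568 (plus, 486 kb), Khdrbs3 at chr15:68928420-69101211 (plus, 173 kb) and Qk at chr17:10202601-10319854 (minus, 117 kb). Annotated genes on the same strand overlap Rbfox1 (1700123O21Rik), Rbfox3 (Gm11749), Celf2 (Gm10115 and Gm10855) and Khdrbs3 (Gm49422), so that reads of those overlaps could have been split or dropped in counting.

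The 6 libraries held 19134955 to 188952936 UMIs, and 4997 to 9936 nuclei each passed the limits, 42595 in all, with a median of 1637 to 6250 UMIs per nucleus. Clustering without the 10 genes gave 33849 pyramidal neurons, 4266 inhibitory neurons, 1423 astrocytes, 378 oligodendrocytes, 489 oligodendrocyte precursors (OPC) and 608 microglia, each name resting on marker genes. The rarest cells were few in each library: oligodendrocytes numbered 27 to 104, OPC 21 to 142 and microglia 23 to 216. Any pair of libraries shared at most 22 barcodes and at most 0.428% of the smaller one. Cohort 1 stood apart: its empty droplets held 19.96% and 20.3% of the UMIs of the median nucleus, against 4.39% to 7.68% in cohort 2. RNA of pyramidal neurons was present in every other cell type. The summed level of all 7 pyramidal markers (Slc17a7 and 6 others) was 1698 to 1815 CPM (UMIs of a gene scaled to the same total in every sum) in pyramidal neurons, 1116 to 1457 CPM in microglia, 953 to 1491 CPM in oligodendrocytes, 636 to 993 CPM in OPC, 445 to 873 CPM in astrocytes and 444 to 728 CPM in inhibitory neurons, and Slc17a7 was at 0 in none of them. In oligodendrocytes Slc17a7 reached 118 to 210 CPM beside 139 to 276 CPM in pyramidal neurons. The defining markers held: Gad1 was 211 to 268 CPM in inhibitory and 4.77 to 7.18 CPM in pyramidal neurons, Gja1 89.6 to 191 CPM in astrocytes, Mbp 1422 to 4057 CPM in oligodendrocytes, Pdgfra 347 to 953 CPM in OPC and Cx3cr1 164 to 239 CPM in microglia.

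Set per length of gene span, the levels in pyramidal neurons differed between genes. Whether counts scale with span was not tested, so this is not the amount of transcript held. In CPM per 100 kb of gene span (median of 6 libraries), Celf2 stood at 786, Khdrbs3 at 468, Celf4 at 415, Rbfox1 at 284, Nova2 at 273, Rbfox2 at 177, Rbfox3 at 144, Khdrbs2 at 126, Qk at 82.4 and Nova1 at 38.2. This order of medians did not hold in every library, for Khdrbs3 and Celf4 or for Rbfox1 and Nova2 among others. In astrocytes Qk stood at 1721 and Celf2 at 152 CPM per 100 kb, the first and second of the 10 genes in 6 of 6 libraries, while the order of the others differed between libraries. All further levels are CPM of the UMIs summed per library and cell type, and are compared between cell types for 1 gene at a time.

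**Figure D1:**
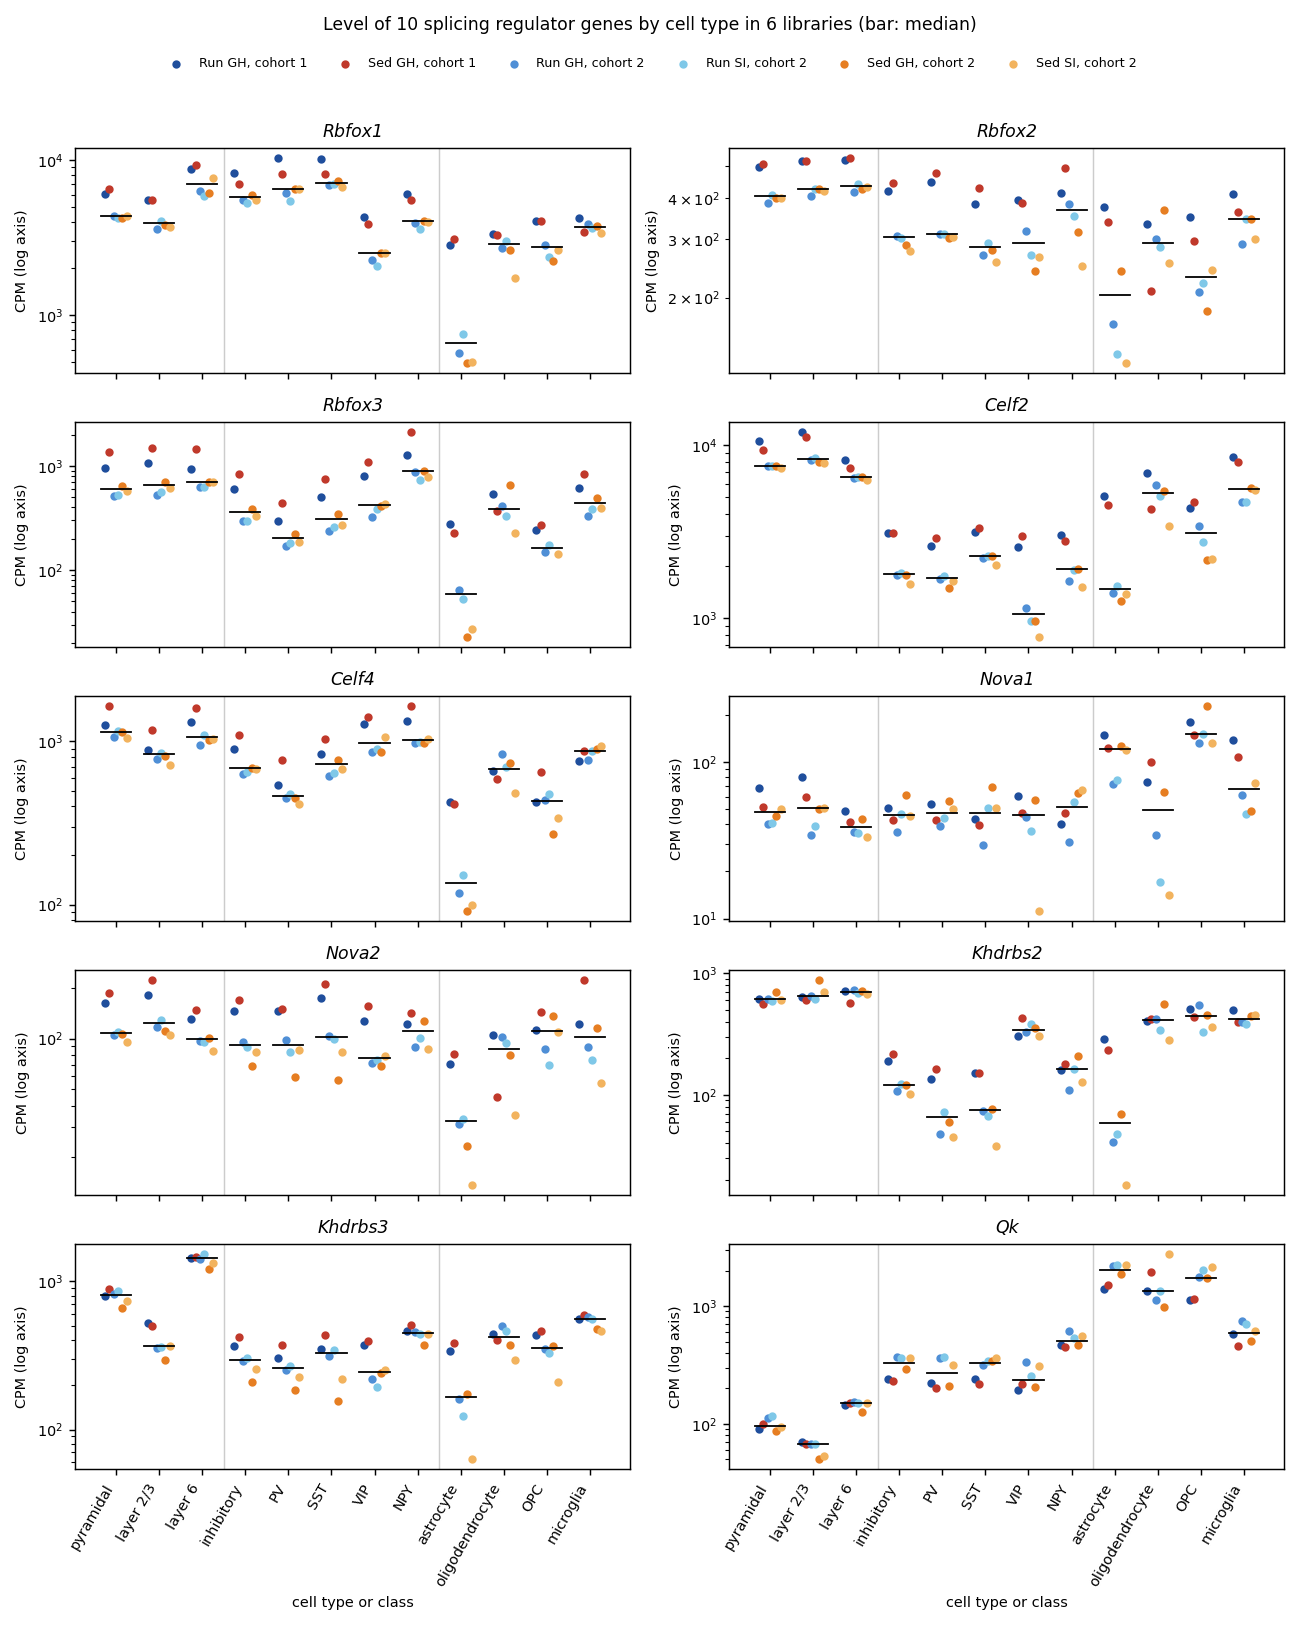
Level of each of the 10 genes (CPM, log axis) by cell type or neuron class, 1 point per library and a bar at the median of the 6 libraries; Rbfox3 in the OPC of Sed GH cohort 2, at 0, is not drawn. Qk is high in astrocytes, oligodendrocytes and OPC (medians of 2018, 1345 and 1740 CPM) and low in pyramidal neurons (96.6 CPM), while Celf2, Khdrbs2 and Khdrbs3 have their highest medians among pyramidal neurons or 1 of their layers.

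The first question was how the 10 genes differed between the main neuron classes. Compared within libraries, 8 of the 10 genes were lower in inhibitory than in pyramidal neurons and Qk was higher, while Rbfox1 did not pass the test (edgeR quasi-likelihood test, library as block, adjusted p under 0.05). The background is wide here, since 48.1% of all 9782 genes tested differed between these classes, 25.7% lower and 22.4% higher in inhibitory neurons. The median log2 difference was -0.69 over the 10 genes and 0.00 over all genes tested. Without the library term 4 of the 10 passed, among 22.1% of all genes.

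RBFOX proteins share an RNA recognition domain and a common motif, and Rbfox3 encodes NeuN, the antigen used to stain neuronal nuclei. Rbfox1 was at 4238 to 6561 CPM (median 4338) in pyramidal and 5295 to 8323 CPM (median 5773) in inhibitory neurons. The inhibitory value was the higher one in 6 of 6 libraries, by 1.07 to 1.41 times, but the fitted log2 difference was 0.18 ± 0.25 (SE; edgeR adjusted p = 0.571). Rbfox2 was at 387 to 506 CPM (median 405) in pyramidal and 277 to 443 CPM (median 305) in inhibitory neurons. Its difference of -0.53 ± 0.14 (edgeR adjusted p = 0.00128) was seen in 6 of 6 libraries. Rbfox3 had 510 to 1354 CPM (median 606) in pyramidal and 297 to 847 CPM (median 358) in inhibitory neurons. The ranges over libraries overlapped, and both cohort 1 libraries were high in both classes. Within each library the inhibitory level was lower, by 1.60 to 1.77 times, and the fit gave -0.91 ± 0.21 (edgeR adjusted p = 0.000282). This held for the inhibitory sum, while the NPY interneurons described below were above the pyramidal level in every library (741 to 2128 CPM).

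CELF proteins bind GU-rich elements and act in splicing, translation and decay; Celf4 is enriched in neurons, and its loss causes seizures in mice. Celf2 parted the classes without overlap, at 7402 to 10559 CPM (median 7620) in pyramidal and 1572 to 3121 CPM (median 1809) in inhibitory neurons. The log2 difference was -2.15 ± 0.22 (edgeR adjusted p = 4.02e-11), or 2.99 to 4.71 times within libraries. The inhibitory level of Celf2 was under that of the library's own empty droplets in 5 of 6 libraries. Celf4 was at 1051 to 1649 CPM (median 1149) in pyramidal and 629 to 1090 CPM (median 683) in inhibitory neurons, a difference of -0.84 ± 0.21 (edgeR adjusted p = 0.000683) in the same direction in 6 of 6 libraries.

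NOVA proteins, first known as autoantigens of a paraneoplastic disorder, bind clustered motifs in transcripts of synaptic proteins. Nova1 was among the low genes, at 40.2 to 68.3 CPM (median 47.5) in pyramidal and 35.5 to 61.4 CPM (median 45.8) in inhibitory neurons. It was lower in inhibitory neurons in 4 libraries and higher in the other two, and its call (-0.28 ± 0.11, edgeR adjusted p = 0.0296) held when Run SI replicate 2 was left out or nuclei with 1000 or more genes were used. It was lost under the other alternatives run, among them DESeq2 (-0.16), library totals without TMM factors (-0.11), and leaving out Run GH (-0.09) or Sed GH (-0.24) replicate 1 or Run GH (-0.19), Sed GH (-0.26) or Sed SI (-0.19) replicate 2. Nova2 was at 95.9 to 186 CPM (median 108) in pyramidal and 69.3 to 171 CPM (median 92.1) in inhibitory neurons. The difference was -0.40 ± 0.10 (edgeR adjusted p = 0.0014), in the same direction in 6 of 6 libraries, and it did not pass with library totals alone (-0.22) or after background subtraction (-0.30).

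Khdrbs2 (SLM1) and Khdrbs3 (SLM2) belong to the STAR family, as does Qk. Khdrbs2 was at 555 to 706 CPM (median 612) in pyramidal and 101 to 216 CPM (median 121) in inhibitory neurons. The groups did not overlap, with a log2 difference of -2.34 ± 0.24 (edgeR adjusted p = 1.52e-11). Khdrbs3 was at 663 to 890 CPM (median 808) in pyramidal and 208 to 420 CPM (median 296) in inhibitory neurons, again without overlap (-1.57 ± 0.17, edgeR adjusted p = 1.19e-10). Qk went the other way, from 87.7 to 116 CPM (median 96.6) in pyramidal to 233 to 372 CPM (median 327) in inhibitory neurons. The inhibitory levels of Khdrbs2 and Khdrbs3 were each under those of the same library's empty droplets in 6 of 6 libraries, whereas that of Qk was under them in 2 of 6. For Qk the inhibitory level was 2.33 to 3.86 times the pyramidal one within libraries (log2 difference 1.44 ± 0.17, edgeR adjusted p = 1.37e-09).

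**Figure D2:**
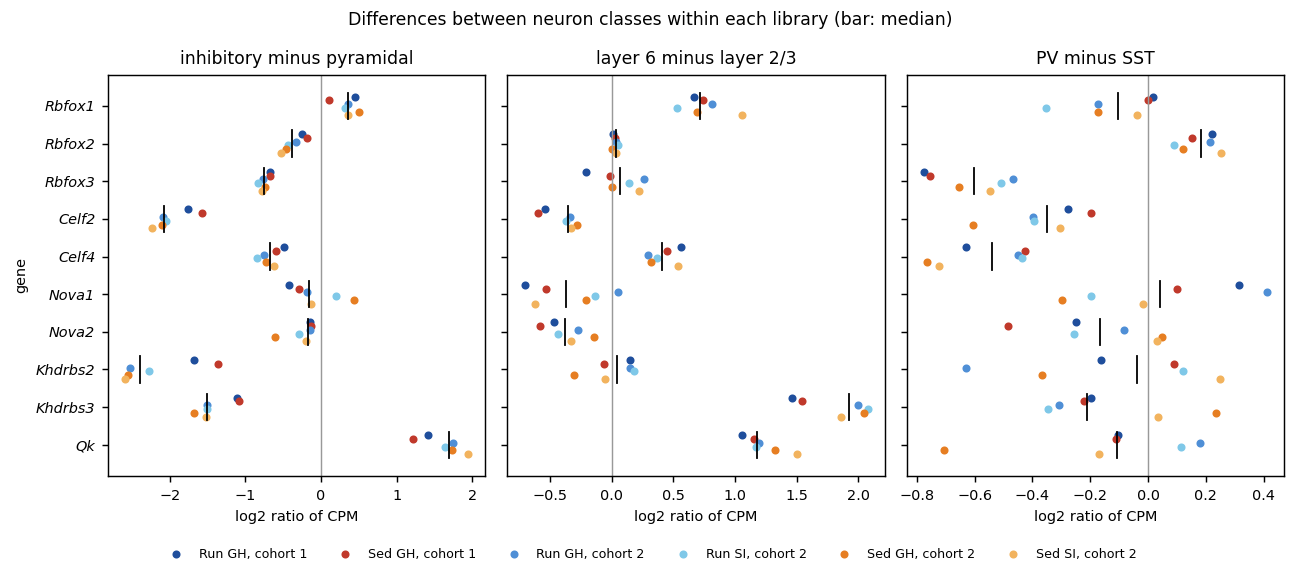
Log2 ratio of CPM between neuron classes within each library (x axis) for the 10 genes (y axis), with 1 point per library and a bar at the median; the x axes differ between panels. Celf2, Khdrbs2 and Khdrbs3 lie left of 0 and Qk right of 0 for inhibitory minus pyramidal in 6 of 6 libraries, Khdrbs3 lies between 1.46 and 2.08 for layer 6 minus layer 2/3, and Rbfox3 and Celf4 lie left of 0 in 6 of 6 libraries for PV minus SST.

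Among pyramidal neurons, layer 6 nuclei (Foxp2 and other markers; 568 to 1378 per library) held more transcript of Khdrbs3, Qk, Rbfox1 and Celf4 than layer 2/3 nuclei (Cux2 and other markers; 1175 to 2605), and less of Celf2, Nova1 and Nova2. Of all 12209 genes tested, 42.1% differed between these layers, 18.2% higher and 23.9% lower in layer 6. Khdrbs3 rose from 295 to 523 CPM (median 364) in layer 2/3 to 1216 to 1529 CPM (median 1427) in layer 6. No layer 6 library came near a layer 2/3 library, and the log2 difference was 1.81 ± 0.10 (edgeR adjusted p = 2.28e-15). A median of 97.8% of layer 6 and 67.4% of layer 2/3 nuclei had a Khdrbs3 UMI; with every nucleus thinned to 1000 UMIs these were 73.9% (67.3% to 78.5%) and 29.0% (23.5% to 39.2%), beside 16.6% in astrocytes. Khdrbs3 was at 267 to 844 CPM in the empty droplets. The layer 6 level was above that of its own library's droplets in 6 of 6 libraries, the layer 2/3 level was under it in 4 of 6 and the astrocyte level in 6 of 6. Thinning left out 88 layer 6, 246 layer 2/3 and 57 astrocyte nuclei that were shallower.

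Qk, so low over pyramidal neurons as a whole, was also split by layer. It was at 50.6 to 69.5 CPM (median 67.0) in layer 2/3 and 127 to 153 CPM (median 151) in layer 6, without overlap (log2 difference 1.18 ± 0.11, edgeR adjusted p = 3.15e-10). Empty droplets held Qk at 129 to 280 CPM, and in 6 of 6 libraries the level of either layer, and of pyramidal neurons as a whole, was under that of the library's own empty droplets. Rbfox1 was at 3610 to 5530 CPM (median 3918) in layer 2/3 and 5833 to 9260 CPM (median 7013) in layer 6. Its difference of 0.73 ± 0.07 (edgeR adjusted p = 1.78e-09) was seen in 6 of 6 libraries, and here too the layers did not overlap. Celf4 was 0.39 ± 0.06 higher in layer 6 on the log2 scale (edgeR adjusted p = 3.49e-06). Celf2 was lower there by -0.43 ± 0.07 (1.83e-05), Nova2 by -0.43 ± 0.08 (6.78e-05) and Nova1 by -0.42 ± 0.10 (0.00153). Nova1 was not lower in Run GH of cohort 2, at 35.4 CPM in layer 6 and 34.2 CPM in layer 2/3. In both cohort 1 libraries Nova1 in either layer was under the level of the library's own empty droplets. Rbfox2 (0.00 ± 0.07), Rbfox3 (0.04 ± 0.07) and Khdrbs2 (-0.01 ± 0.18) did not pass, and for Rbfox2 the ratios in 6 libraries lay within 1.00 to 1.03 times. Without the library term 3 of the 10 genes passed between layers, among 18% of all genes.

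Interneurons were split into PV (168 to 402 nuclei per library; fast-spiking basket and chandelier cells), SST (125 to 340; dendrite-targeting cells), VIP (68 to 200; cells that inhibit other interneurons) and NPY (44 to 126) nuclei. Between PV and SST 3 of the 10 genes differed, all lower in PV, where 22.2% of 12209 genes did, 10.9% lower and 11.4% higher. Rbfox3 was at 170 to 443 CPM (median 203) in PV and 235 to 748 CPM (median 309) in SST. It was lower in PV in 6 of 6 libraries by 1.38 to 1.71 times (log2 difference -0.65 ± 0.08, edgeR adjusted p = 2.75e-07). Celf4 was at 411 to 772 CPM (median 464) in PV and 613 to 1038 CPM (median 724) in SST (-0.58 ± 0.07, edgeR adjusted p = 5.04e-08). Celf2 differed less, by -0.37 ± 0.08 (edgeR adjusted p = 0.000446), and by -0.04 without a call when clusters were built from log-normalized values. Rbfox2 (0.16 ± 0.07), Rbfox1 (-0.14 ± 0.07), Nova1 (0.09 ± 0.18), Nova2 (-0.25 ± 0.11), Khdrbs2 (-0.13 ± 0.25), Khdrbs3 (-0.21 ± 0.11) and Qk (-0.08 ± 0.12) did not pass. In PV the level was under that of the library's own empty droplets in 6 of 6 libraries for Celf4, in 5 for Celf2 and in 4 for Rbfox3. In SST this was so in 2 libraries for Celf4, in 4 for Celf2 and in none for Rbfox3. None of the 3 passed without the library term, where 10.6% of all genes did.

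The other interneuron classes were not tested, and their levels are given as a description. Rbfox3 was at 326 to 1103 CPM (median 424) in VIP and 741 to 2128 CPM (median 887) in NPY nuclei. The 4 medians thus ran PV, SST, VIP, NPY from low to high. Ranges of neighbours in this order overlapped, whereas those of PV and NPY did not. Rbfox1 ran otherwise: VIP had 2087 to 4285 CPM (median 2515), NPY 3613 to 6085 CPM (median 4026), PV 5461 to 10342 CPM (median 6527) and SST 6734 to 10219 CPM (median 7147). The VIP range lay under the PV and SST ranges without overlap, whereas PV and SST could not be parted (edgeR adjusted p = 0.222). In every library the Rbfox1 level of VIP nuclei was also under the pyramidal one. Celf4 was at 859 to 1408 CPM in VIP and 980 to 1648 CPM in NPY nuclei, and both ranges overlapped that of pyramidal neurons. Khdrbs2, low in PV (45.1 to 162 CPM, median 65.6) and SST (37.9 to 152 CPM, median 74.7), was at 304 to 427 CPM (median 343) in VIP nuclei. Thinned to 1000 UMIs, a median of 25.9% of VIP nuclei had a Khdrbs2 UMI, against 6.03% of PV, 6.39% of SST and 4.38% of astrocyte nuclei; unthinned medians were 47.6%, 15.7%, 16.1% and 7.74%. Empty droplets held Khdrbs2 at 170 to 589 CPM, above the PV and SST levels of the same library in 6 of 6 libraries and above the VIP level in the 2 of cohort 1. Qk was at 448 to 615 CPM (median 502) in NPY nuclei and had medians of 235 to 329 CPM in the other classes.

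Glia were compared with pyramidal neurons next. In astrocytes, the cells that take up glutamate and potassium, all 10 genes passed the test: 8 were lower and Qk and Nova1 were higher, where 66.1% of 9782 genes differed, 38.6% lower and 27.5% higher. Rbfox3 had the largest difference of the 8 (-3.00 ± 0.25, edgeR adjusted p = 1.77e-14), with 510 to 1354 CPM in pyramidal neurons and 23.0 to 278 CPM (median 58.7) in astrocytes, where 2 libraries held 2 and 6 UMIs. Celf4 (-2.78 ± 0.23), Khdrbs2 (-2.67 ± 0.26), Rbfox1 (-2.36 ± 0.26), Khdrbs3 (-2.29 ± 0.19) and Celf2 (-2.19 ± 0.23) followed, and Nova2 (-1.75 ± 0.15) and Rbfox2 (-1.24 ± 0.15) had the smallest differences. For 7 of these 8 genes the astrocyte level was under that of the library's own empty droplets in 6 of 6 libraries, and for Rbfox2 in 5. The astrocyte values split by cohort. Rbfox1 was at 2823 and 3110 CPM in the cohort 1 libraries and 494 to 759 CPM in the 4 of cohort 2, where empty droplet RNA equalled 26.5% to 27.7% and 8.20% to 15.2% of astrocyte UMIs.

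Qk was at 1403 to 2254 CPM (median 2018) in astrocytes, 15.1 to 24.2 times the pyramidal level within libraries (log2 difference 3.95 ± 0.19, edgeR adjusted p = 1.72e-22). Thinned to 1000 UMIs, a median of 85.0% of astrocytes and 9.34% of pyramidal neurons had a Qk UMI (96.2% and 35.4% unthinned). Nova1 was at 72.4 to 149 CPM (median 120) in astrocytes and higher than in pyramidal neurons in 6 of 6 libraries, by 1.80 to 2.79 times (0.83 ± 0.13, edgeR adjusted p = 1.73e-07). Its paralog Nova2 was at 13.6 to 80.6 CPM (median 32.3) in astrocytes.

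OPC, the dividing precursors of oligodendrocytes, showed the same split of 8 lower and 2 higher genes (43.6% of all genes differed, 27.6% lower and 16% higher). Qk was at 1123 to 2129 CPM (median 1740; 3.56 ± 0.19, edgeR adjusted p = 2.3e-20) and Nova1 at 132 to 227 CPM (median 149; 1.28 ± 0.15, edgeR adjusted p = 2.18e-09). Both were above the pyramidal level in 6 of 6 libraries. Rbfox3 was at 143 to 273 CPM in 5 libraries, and no UMI was seen among the 21 OPC of Sed GH cohort 2, for which the exact 95% Poisson interval, covering counting error only, reached 167 CPM. Its difference was -2.37 ± 0.25, and the OPC level was under that of the library's own empty droplets in 6 of 6 libraries for Rbfox3 and Celf4 and in 5 for Rbfox2 and Khdrbs3. Empty droplet RNA equalled 29.0% to 31.4% of OPC UMIs in cohort 1 and 7.28% to 11.3% in cohort 2. Celf4 (-1.85 ± 0.23), Celf2 (-1.82 ± 0.22), Khdrbs3 (-1.60 ± 0.19), Rbfox1 (-1.15 ± 0.25), Rbfox2 (-1.15 ± 0.16) and Nova2 (-0.78 ± 0.16) were also lower. Khdrbs2 was at 330 to 547 CPM (median 444) in OPC, a difference of -0.91 ± 0.25 (edgeR adjusted p = 0.00223) that was lost without Sed GH replicate 2 (-0.65) and under library totals without TMM factors (-0.52).

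In oligodendrocytes, the myelinating cells, Qk was the 1 gene that passed as higher, with 8 lower (33.4% of all genes differed, 23.5% lower and 9.82% higher). It was at 978 to 2773 CPM (median 1345), 10.1 to 29.7 times the pyramidal level (3.60 ± 0.19, edgeR adjusted p = 2.25e-20). The 8 lowered genes differed by -0.86 to -1.29, each less than in astrocytes (this was not tested), while the pyramidal markers were as high as 1491 CPM in these nuclei. Celf2 was still at 3401 to 6939 CPM (median 5286). In both cohort 1 libraries its level (6939 and 4292 CPM) was under that of the library's own empty droplets (8001 and 9092 CPM). Empty droplet RNA equalled 27.1% to 31.1% of oligodendrocyte UMIs in cohort 1 and 4.73% to 8.11% in cohort 2. Nova1 did not pass (-0.49 ± 0.22, edgeR adjusted p = 0.0925), except without Sed GH replicate 1 (-0.66). Microglia, the immune cells of the brain, had Qk at 462 to 749 CPM (median 596, difference 2.23 ± 0.18, edgeR adjusted p = 3.99e-14). In sums of all nuclei this was below every library of the other glia, but not in the nuclei without a pyramidal marker UMI given below. Another 8 genes were lower by -0.64 to -0.91 (35.4% of all genes differed, 22.8% lower and 12.7% higher), beside pyramidal markers of 1116 to 1457 CPM, and Nova1 did not pass (0.26 ± 0.16, edgeR adjusted p = 0.218). The Rbfox1 call in microglia (-0.71 ± 0.25, edgeR adjusted p = 0.023) was lost without Run GH replicate 1 (-0.53) or without Run GH (-0.63), Sed GH (-0.64) or Sed SI (-0.60) replicate 2, that of Celf2 without Run GH replicate 2 (-0.65) and that of Khdrbs2 without Sed GH replicate 2 (-0.73). With library totals alone, where 27.2% of all genes passed and the median log2 difference of all genes went from -0.16 to 0.18, 4 of the 10 passed in microglia, namely Rbfox3, Khdrbs3 and Qk and, in place of the others, Nova1 (0.61). Without the library term 4 passed in oligodendrocytes and 2 in microglia, among 15.9% and 12.1% of all genes.

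Since pyramidal markers moved with these values, the glial levels were also taken from nuclei with no UMI of the 7 pyramidal markers, a choice made after seeing the data. Over all libraries this left 373 of 1423 astrocytes, 123 of 489 OPC, 99 of 608 microglia and 49 of 378 oligodendrocytes. Of these, the nuclei of libraries with at least 10 were used, in 6, 5, 4 and 3 libraries. In oligodendrocytes the differences from pyramidal neurons then ran from -2.40 for Rbfox2 to -4.14 for Khdrbs2 among the 8 lowered genes, with -3.60 for Celf2 and -3.48 for Rbfox1, and Qk was higher by 4.62. These rest on few molecules: 34 UMIs of Rbfox1, 50 of Celf2, 3 of Khdrbs2 and 274 of Qk. In microglia Rbfox3 (-1.99), Celf2 (-2.16), Khdrbs2 (-2.13) and Khdrbs3 (-1.87) were further from pyramidal neurons than in all microglia, whereas Rbfox1 was at -0.81 (edgeR adjusted p = 0.0251) beside -0.71 in all microglia. In OPC Rbfox3 went to -4.01 and Celf2 to -2.60, and Khdrbs2 did not pass (-0.61, edgeR adjusted p = 0.056). In astrocytes Rbfox3 was at -3.30, Nova1 at 1.29 and Qk at 4.33. Qk levels in these nuclei were 1796 to 2375 CPM in astrocytes and 3429 to 4516 CPM in oligodendrocytes. They were 1046 to 2841 CPM in OPC and 913 to 1644 CPM in microglia, and these ranges of OPC and microglia overlapped. None of the 10 genes changed direction in these nuclei in the 4 glial types.

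**Figure D3:**
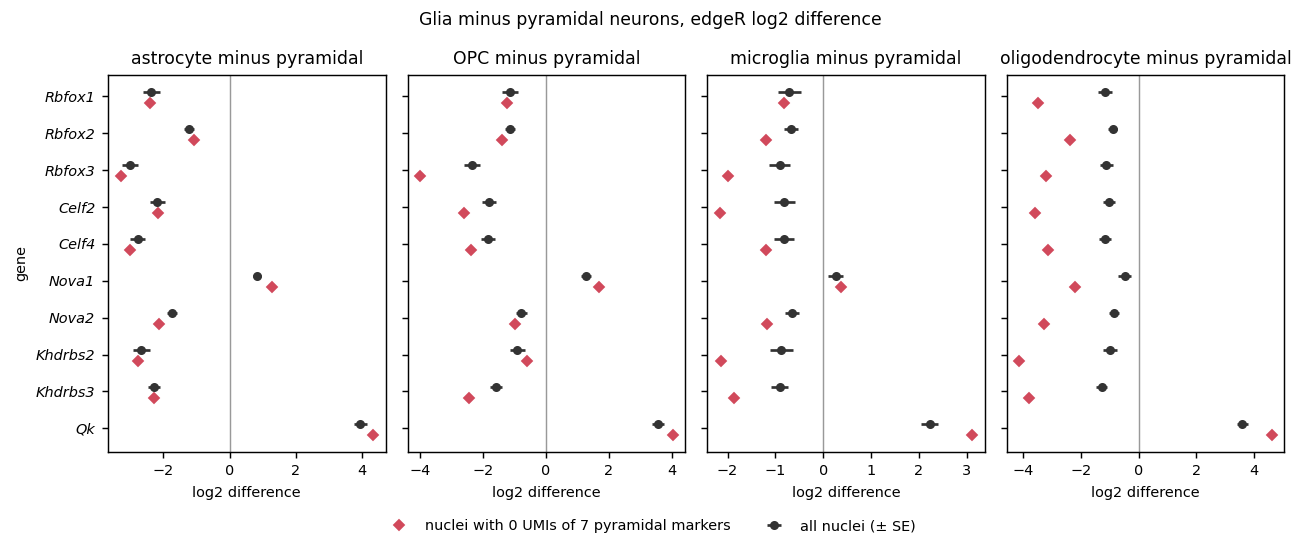
Log2 difference (x axis) between each glial type and pyramidal neurons for the 10 genes (y axis); dark points show all nuclei with their SE, red diamonds the nuclei without a UMI of the 7 pyramidal markers. Qk lies right of 0 in the 4 panels (3.95, 3.60, 3.56 and 2.23 for all astrocytes, oligodendrocytes, OPC and microglia), and in oligodendrocytes the diamonds of the 8 lowered genes lie between -2.40 and -4.14, left of the dark points.

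The wider set of splicing genes was read for context. Of 22 other regulators with known neuronal roles, 20 were tested between inhibitory and pyramidal neurons: 5 were higher and 7 lower (median log2 difference -0.17). Elavl2 (HuB, 2.14 ± 0.18), Msi2 (1.22 ± 0.17) and Msi1 (0.95 ± 0.15) were higher, and Rbm24 (-1.91 ± 0.13), Mbnl2 (-0.96 ± 0.13) and Celf5 (-0.83 ± 0.09) lower. PV and SST neurons differed in 10 of 21, among them Srrm4 (nSR100), the activator of neuronal microexons, which was 2.81 ± 0.11 higher in PV (edgeR adjusted p = 4.17e-18), and Celf6 and Celf5, which were lower (-0.85 ± 0.17 and -0.76 ± 0.11). Between layers, 9 were higher in layer 6, such as Elavl2 (1.47 ± 0.16) and Elavl4 (1.33 ± 0.09), and 5 lower, such as Rbm24 (-1.85 ± 0.11). In astrocytes 3 of 20 were higher than in pyramidal neurons and 11 lower, with a median of -0.44 beside -2.24 for the 10 genes and -0.12 for all genes tested. In oligodendrocytes 2 were higher and 8 lower, in OPC 3 and 11, and in microglia 3 and 8. The Musashi genes Msi2 (3.99 ± 0.19) and Msi1 (3.12 ± 0.16), known in neural precursors and astrocytes, and muscleblind Mbnl1 (0.53 ± 0.12) were higher, and Srrm3 (-2.63 ± 0.20), Rbm24 (-2.60 ± 0.23) and Srrm4 (-2.51 ± 0.24) were among the lower. Of 30 general splicing factors tested, 7 were higher in astrocytes, with Hnrnpa2b1 at 1.89 ± 0.13, and 3 lower, for a median of 0.14. Between inhibitory and pyramidal neurons 4 were higher and 2 lower (median 0.00). The shares of all genes that passed, as given above, were 48.1% for inhibitory neurons, 22.2% for PV against SST, 42.1% for the layers, 66.1% for astrocytes, 33.4% for oligodendrocytes, 43.6% for OPC and 35.4% for microglia.

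As a description of pattern, each gene was correlated with 9777 others over 54 sums of 9 cell types in 6 libraries, which share libraries, depth and free RNA and are not independent. The genes most like Rbfox1 were Xkr4 (Pearson r = 0.94), Cers6 (0.94) and Dlgap2 (0.94). Rbfox3 was most like Shank2 (0.96), a postsynaptic scaffold, Dapk1 (0.91) and Ak5 (0.91). Rbfox2 had no equally close companion (Nin, 0.84; Ksr2, 0.82; Chchd6, 0.81). Celf2 went with Cnksr2 (0.92), Dpp10 (0.92) and Prkag2 (0.91), and Celf4 with Gpr158 (0.93) and Svop (0.92). For Khdrbs2 these were Pcsk2 (0.94), Ldb2 (0.94) and Arpp21 (0.92), and for Khdrbs3 Hs3st4 (0.89), one of the layer 6 markers used to name clusters, Nrg1 (0.89) and Sh3gl2 (0.88). Nova1 stood most alone (Fhit, 0.74; Rin2, 0.73; Afap1l2, 0.71), whereas Nova2 was like Unc79 (0.87), Reep1 (0.86) and Jazf1 (0.85). Qk was like Elf1 (0.86), Stard13 (0.86) and Gab1 (0.86).

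The design asked whether the maternal environment or social isolation changed gene expression in PL cells. None of the 10 genes passed in any of 5 cell types tested (pyramidal, PV, SST, astrocytes and oligodendrocytes), 0 of 50 tests for Run against Sed and 0 of 50 for SI against GH (edgeR quasi-likelihood test over the 6 libraries in 1 additive model that also held the cohort, with 2 degrees of freedom left). At an unadjusted p under 0.05 there were 7 and 3, the lowest adjusted p values were 0.472 and 0.92, and DESeq2 also called none. Over all genes, Run against Sed called 0% in pyramidal neurons, 0.0676% in PV, 0.0708% in SST, 0.358% in astrocytes and 0% in oligodendrocytes, and SI against GH called 0%, 0%, 0.0101%, 0.0119% and 0% in the same order. At an unadjusted p under 0.05, Run against Sed had 7.43%, 5.73%, 6.1%, 7.5% and 9.26% of all genes and SI against GH 0.952%, 1.61%, 2.11%, 4.22% and 5.29%. For SI minus GH in pyramidal neurons the differences lay between -0.14 ± 0.13 (Khdrbs2) and 0.11 ± 0.12 (Khdrbs3). They were wider elsewhere: -0.07 to 0.30 in PV, -0.36 to 0.35 in SST and -0.62 to 0.33 in astrocytes. In oligodendrocytes they ran from -1.32 ± 0.68 (Nova1) to 0.82 ± 0.31 (Qk). The SE of a gene's Run minus Sed difference was 0.08 to 0.51 on the log2 scale, so small changes were not detectable, above all in the rarer cells. The limit held in pyramidal neurons too, where Rbfox3 at -0.36 ± 0.09 did not pass (edgeR adjusted p = 0.649). In bulk sums of this kind, fewer molecules per nucleus and fewer expressing nuclei cannot be told apart.

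Rbfox3 came closest in neurons. In pyramidal neurons it was at 960 CPM in Run GH and 1354 CPM in Sed GH of cohort 1, 510 and 638 CPM in Run GH and Sed GH of cohort 2, and 527 and 574 CPM in Run SI and Sed SI. The Run library was the lower one in 3 of 3 pairs, as it was in PV (296 and 443, 170 and 220, 182 and 185 CPM) and in SST neurons (506 and 748, 235 and 347, 259 and 271 CPM). Empty droplets held Rbfox3 at 215 to 348 CPM, and 4 of the 6 PV levels were under that of their own library. Such a pattern was common: 14.3% of genes in pyramidal, 12.8% in PV and 13.3% in SST neurons were lower in 3 of 3 pairs, counted on CPM rescaled by the TMM factors. The fitted Run minus Sed differences were -0.36 ± 0.09 (adjusted p = 0.649), -0.36 ± 0.14 (adjusted p = 0.847) and -0.41 ± 0.14 (adjusted p = 0.671; edgeR). The interaction of Run minus Sed with housing did not pass (0 of 50 such tests passed). In astrocytes, with 2 to 535 UMIs per library, the Rbfox3 difference was 0.43 ± 0.20 (edgeR adjusted p = 0.606).

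The answer in pyramidal neurons rested on cohort 1. Leaving out either of its libraries gave nearly the same fit, so the results below are not separate. Each such fit had fewer residual degrees of freedom than the 2 of the main fit. In both pairs of cohort 2 the Run library was deeper (medians of 3396.5 and 1637, 4033 and 3600 UMIs per nucleus). Empty droplet RNA equalled more of its pyramidal UMIs as well (6.35% and 4.15%, 6.32% and 3.63%). The part of depth and free RNA was not tested. Without Run GH replicate 1 or without Sed GH replicate 1, the cohort term leaves the difference to the 4 libraries of cohort 2, and 4 of the 10 genes then passed, among 15.2% and 15.1% of all genes: Rbfox3 (-0.31, edgeR adjusted p = 0.0011 in both fits), Nova1 (-0.33, 0.0148 and 0.0136), Khdrbs2 (-0.21, 0.0347 and 0.0319) and Qk (0.24, 0.0421 and 0.0438). The empty droplets, which held more Qk than the pyramidal neurons, also held more in Run than in Sed in both pairs of cohort 2 (179 and 129, 172 and 169 CPM). They held more Khdrbs2 in Run as well (225 and 181, 219 and 169 CPM), where the pyramidal neurons held less. Khdrbs2 in layer 2/3 was at 654 and 884 CPM (GH) and 612 and 698 CPM (SI) in Run and Sed of cohort 2. In layer 6 Run was the higher one in both pairs (726 and 715, 693 and 671 CPM). In cohort 1, 649 of 6232 Run and 991 of 4094 Sed pyramidal nuclei were named layer 6. The layers were not tested apart for these differences. In SST neurons Khdrbs3 passed in the same fits (0.74, edgeR adjusted p = 0.00265 and 0.00247), among 0.74% and 0.777% of all genes. Its SST levels in cohort 2 were 312 and 156 CPM in Run GH and Sed GH and 342 and 220 CPM in Run SI and Sed SI, each under that of the library's own empty droplets (419 and 267, 445 and 311 CPM), which also held more in Run. Of these 5 calls, the test of the difference between cohorts called Nova1, Khdrbs2 and Khdrbs3. Nova1 in pyramidal neurons was at 68.3 CPM in Run GH and 51.7 CPM in Sed GH of cohort 1, and at 40.2 and 45.3 CPM (GH) and 40.5 and 49.7 CPM (SI) in cohort 2. The empty droplets held Nova1 at 105 and 87.7 CPM in Run GH and Sed GH of cohort 1, above the pyramidal levels, and at 27.4 to 30.9 CPM in cohort 2, under them. Run was higher in cohort 1, as in its droplets, and lower in both pairs of cohort 2, with an interaction of -0.77 ± 0.16 (edgeR adjusted p = 0.000226, 1 residual degree of freedom), where 12% of genes passed this test in pyramidal neurons. In all, 4 of 50 interactions with cohort passed in the 5 cell types, while 1.15% of all genes did in PV, 0.773% in SST, 0.0517% in astrocytes and 0% in oligodendrocytes. With housing 0 of 50 passed, and of all genes at most 0.0179% (PV). For Rbfox3 the interaction with cohort did not pass, and its Run libraries were lower in both cohorts.

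**Figure D4:**
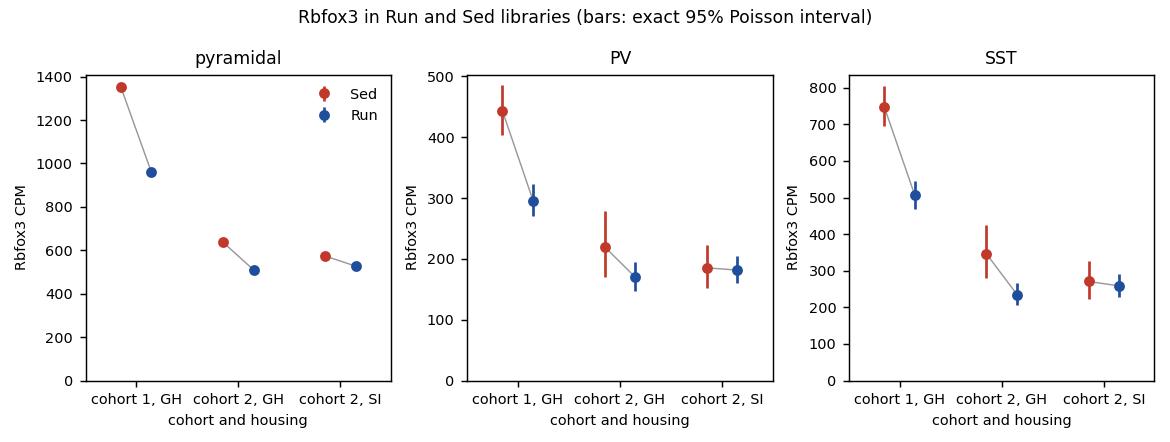
Rbfox3 level (CPM, y axis from 0) in pyramidal, PV and SST neurons for the 3 pairs of Run and Sed libraries (x axis: cohort and housing); bars are exact 95% Poisson intervals of the counts and do not include variation between animals. Run is the lower point in each pair, from 960 against 1354 CPM in pyramidal neurons of cohort 1 to 182 against 185 CPM in PV neurons of the SI pair.

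More of the 10 genes differed between cohorts. In pyramidal neurons 7 of the 10 genes were lower in cohort 2, where 38.2% of genes differed, 18% lower and 20.2% higher. Rbfox3 was at 960 and 1354 CPM in cohort 1 and 510 to 638 CPM in cohort 2 (log2 difference -1.17 ± 0.11, edgeR adjusted p = 0.0013). Nova2 followed, from 162 and 186 CPM to 95.9 to 109 CPM (-0.88 ± 0.11), and Rbfox1, from 6087 and 6561 CPM to 4238 to 4338 CPM (-0.73 ± 0.11). Celf2 (-0.55 ± 0.13), Celf4 (-0.56 ± 0.13), Rbfox2 (-0.52 ± 0.10) and Nova1 (-0.67 ± 0.21) passed as well, and for each of the 7 genes the cohorts did not overlap. Khdrbs2 (0.01 ± 0.13), Khdrbs3 (-0.35 ± 0.12) and Qk (-0.11 ± 0.12) did not pass, and their cohorts overlapped. The Nova1 call was lost without any 1 of 5 libraries (-0.25 without Run GH replicate 1), and without Run GH or Sed GH replicate 2 the calls that passed were 2, those of Rbfox3 and Nova2, among 14.3% and 17.5% of all genes.

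PV neurons had 8 genes lower in cohort 2 (26.6% of genes differed, 11.6% lower and 15% higher) and SST neurons 7 (26.9%, with 12.3% lower and 14.6% higher), and here Khdrbs2 was one of them: in PV it went from 134 and 162 CPM to 45.1 to 72.1 CPM (-1.64 ± 0.24, edgeR adjusted p = 0.000135). In astrocytes 9 were lower and Qk higher (35.5% of genes differed, 17.2% lower and 18.3% higher), from Khdrbs2 (-2.69 ± 0.29) and Rbfox1 (-2.56 ± 0.17) to Nova1 (-0.82 ± 0.26), with Qk at 0.41 ± 0.14 (1403 and 1507 CPM, then 1862 to 2254 CPM). When clusters were built from log-normalized values, 3 of the 10 passed in astrocytes, all lower (26.3% of all genes differed), while Khdrbs2 (0.09), Celf4 (0.16), Khdrbs3 (0.08) and Qk (-0.32) turned their direction with no call. The Qk call was also lost without Run GH replicate 1 (0.27) or without Run GH (0.07), Sed GH (0.49) or Sed SI (0.28) replicate 2. Nova1 in astrocytes was at -0.15 without Run GH replicate 1 and -0.34 without Run GH replicate 2, with no call. Without Run GH replicate 2, 5 calls were made in PV, 3 in SST and 6 in astrocytes (10.7%, 8.76% and 9.18% of all genes), and without Sed GH replicate 2, 5 in PV (19.9%). In oligodendrocytes edgeR and DESeq2 called none of the 10, none was at an unadjusted p under 0.05 (21% of all genes were), and 5.68% of all genes differed. Beside these values, empty droplet RNA equalled 16.0% to 16.97% of pyramidal, 19.0% to 20.9% of SST and 26.5% to 27.7% of astrocyte UMIs in cohort 1 and 3.63% to 6.35%, 4.996% to 8.66% and 8.20% to 15.2% in cohort 2. After subtraction of the empty droplet profile 6 of the 10 genes were lower in pyramidal neurons, 4 in PV, 3 in SST and 8 in astrocytes, and Qk was higher in pyramidal (0.56) and SST neurons (0.62). Of all genes, 30.4%, 15.3%, 14.6% and 18.3% differed there in the same order. Celf2 then turned its direction in PV (0.26) and SST (0.21) and Khdrbs2 in SST (0.30), with no call. In astrocytes without a pyramidal marker UMI, 3 of the 10 calls remained, among 18.7% of all genes: Rbfox1 (-2.22), Celf2 (-1.42) and Khdrbs2 (-2.07). Rbfox3 (-1.22), Celf4 (-1.04), Rbfox2 (-0.65), Khdrbs3 (-0.64), Qk (0.22) and Nova1 (0.05) did not pass there, and Nova2 was not tested. Cohort, behavioral testing, the choice of mice by rank, depth and free RNA cannot be told apart in this design. Of 21 other regulators tested in pyramidal neurons 2 were higher and 7 lower in cohort 2 (38.2% of all genes differed), and of 30 general factors 3 were higher and 8 lower. Srsf7, a general factor, was higher in cohort 2 in all 5 cell types (1.85 ± 0.21 in pyramidal neurons, 2.41 ± 0.38 in oligodendrocytes).

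**Figure D5:**
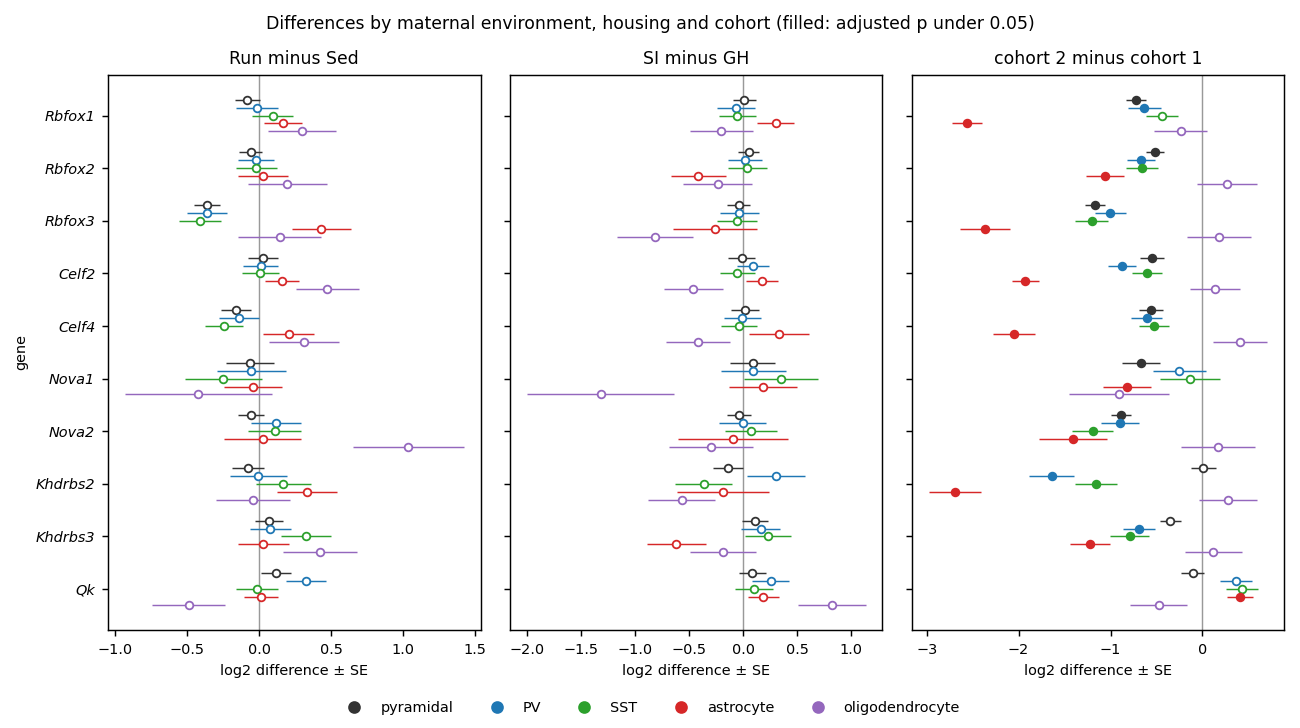
Log2 difference with its SE (x axis) for the 10 genes (y axis) by maternal environment, housing and cohort in 5 cell types; filled points have an adjusted p under 0.05, and the x axes differ between panels. No point is filled for Run minus Sed or SI minus GH, and for cohort 2 minus cohort 1 the filled points lie left of 0 except Qk in astrocytes (0.41).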

How the data were processed

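Per the labels and methods, Chromium 3′ V3 libraries of nuclei were processed by the authors with Cell Ranger 6.0.0 against mm10 with introns included. The matrix headers name Cell Ranger 4, so that the version differs and the counting of introns rests on the methods. What they deposited is the unfiltered matrix of UMI counts, all barcodes kept. Counting introns may give long genes more reads, which was not tested here. Nuclei with 500 to 4000 genes, at most 1% mitochondrial UMIs and more UMIs than a limit set per library above the empty droplets were kept. Clusters (Pearson residuals of 3000 genes, 35 components, 20 neighbours, Leiden resolution 0.6; scanpy 1.11.5) were built without the 10 genes and the listed splicing genes and named from marker lists; the naming rule was adjusted after the clusters were seen. Doublets were called with Scrublet and removed in an alternative. The 10 genes and all lists were chosen with earlier results of these data known.

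The nuclei of 1 cell type in 1 library (at least 10) were added up, and these sums tested over all genes with edgeR 4.0.16 (TMM, filterByExpr, quasi-likelihood test, Benjamini-Hochberg adjustment at 0.05). Cell types were compared with library as block; maternal environment, housing and cohort entered one model of 6 libraries. Tests were checked on simulated data. DESeq2 1.42.0 and the other settings below were alternatives. The SE was taken from the log2 difference and the F statistic. Replicates are pools of mice. With library as block, p-values for cell types set a difference within libraries against a spread over up to 6 pools. That spread came from 1 fit of several cell types, and edgeR shares it in part between genes. It is thus not the spread of the compared cell types alone. In the model of conditions the p-values measure the spread between pools that its terms leave, which edgeR estimates largely from other genes. They thus do not rest on each gene's own pools alone. That model left 2 degrees of freedom, and 1 with an interaction. The rule names all 10 genes in each comparison (by range where many behave alike), up to 3 genes per direction of the other lists with the largest changes past the threshold, and the 3 genes of highest correlation with each gene, of which 1 is not reported here. Replicate numbers in the labels are cohort numbers, and the cohort served as the block. Depth ranged from 19134955 to 188952936 UMIs per library.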

Additional observations from a re-analysis of the deposited data

Results flagged for a closer look

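In 70 sets of 6 within-library ratios, 1 library stood apart from the other 5: for Nova2, inhibitory minus pyramidal, Sed GH of cohort 2 was at -0.61 on the log2 scale and the others between -0.30 and -0.13. Chance alone flags about 1 in 20 such sets, and this was the library of lowest depth. Of 100 tests of whether the Run minus Sed difference changed with cohort or with housing, 4 passed, all by cohort (edgeR quasi-likelihood test, 1 residual degree of freedom). In pyramidal neurons, where 12% of all genes passed, the change was -0.77 ± 0.16 for Nova1 (adjusted p = 0.000226) and -0.40 ± 0.12 for Khdrbs2 (adjusted p = 0.0181). The Run and Sed levels of Khdrbs2 were 616 and 555 CPM in cohort 1, 619 and 706 CPM (GH) and 589 and 607 CPM (SI) in cohort 2. In PV neurons Rbfox1 changed by -0.62 ± 0.16 (adjusted p = 0.0128), where 1.15% of genes passed, with Run and Sed levels of 10342 and 8109, 6177 and 6502, and 5461 and 6552 CPM in the same pairs. In SST neurons Khdrbs3 changed by 0.98 ± 0.24 (adjusted p = 0.00976), where 0.773% of genes passed, with 351 and 435, 312 and 156, and 342 and 220 CPM. Each of these 6 levels was under that of the library's own empty droplets (664 and 844, 419 and 267, and 445 and 311 CPM), which differed between Run and Sed in the same direction in 3 of 3 pairs. For Nova1 the droplets of cohort 1 held 105 and 87.7 CPM in Run and Sed, above the pyramidal levels of 68.3 and 51.7 CPM and in the same direction. For Rbfox1 the droplets held 4869 and 6209, 1594 and 1018, and 1682 and 1148 CPM in Run and Sed of the same pairs. Those of Khdrbs2 were 551 and 589, 225 and 181, and 219 and 169 CPM. For both genes the droplets differed in the direction opposite to the nuclei in 3 of 3 pairs. Cohort 1 gave 1 pair of libraries for each of these values, from mice chosen by rank. Empty droplet RNA differed between cohorts as given above, and its part was not tested.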

How the results depend on the processing

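With no replicate block (library left out of the fit), 4 of the 10 genes passed between inhibitory and pyramidal neurons, 4 in oligodendrocytes, 2 in microglia, 3 between layers and 0 between PV and SST. With library totals only, 4 passed in microglia; totals moved the median of all genes by 0.17 (inhibitory) and 0.31 to 0.36 (glia) on the log2 scale. Between cell types no called difference turned its sign; 65 of 1100 values of single genes lost and 5 gained a call. For Run against Sed, leaving the block out changed no count. When 1 library at a time was left out, the count of genes passed ran from 0 to 4 in pyramidal neurons, 0 to 1 in SST neurons and 0 to 2 in oligodendrocytes, and for SI against GH from 0 to 2 in oligodendrocytes. For the cohorts it ran from 2 to 8 in pyramidal, 5 to 9 in PV and 3 to 8 in SST neurons, 6 to 10 in astrocytes and 0 to 1 in oligodendrocytes. Background subtraction gave 4 in PV and 4 in SST, and log-normalized clustering gave 3 in astrocytes and 1 in oligodendrocytes. Nuclei with 1000 or more genes gave 1 in oligodendrocytes. Astrocytes without a pyramidal marker UMI, added after seeing the data, gave 3. Shares of all genes are given above for only some settings of this section. Its counts thus describe the settings and not a trait of the 10 genes. Cohort differences of opposite sign to the main one were, after background subtraction, Qk in pyramidal neurons (0.56), Celf2 in PV (0.26) and SST (0.21) and Khdrbs2 in SST (0.30), with log-normalized clustering Celf4 (0.16), Khdrbs2 (0.091), Khdrbs3 (0.080) and Qk (-0.32) in astrocytes, and without pyramidal marker UMIs Nova1 in astrocytes (0.050). The cause was not tested. Too few oligodendrocytes without marker UMIs were left for the cohort and condition tests, which were not run on them.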
